A study of Homo sapiens with 6 samples.

Results

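Integrins are the receptors through which epithelial cells hold on to the matrix around them, and 10 of their subunit genes were followed here in MCF10DCIS.com cells after silencing of WDR5. The members were the rows of the count table named ITGA2, ITGA3, ITGA5, ITGA6, ITGAV, ITGB1, ITGB2, ITGB4, ITGB5 and ITGB6, that is 10 of 26334 genes in the table. They were chosen by name as subunits of breast epithelial cells, and in part selected on the measured values, because ITGB2 was among the largest rises between shWDR5 and shLuc. For this reason the change of each member between the groups is given as a description, with no p-value. Where members are set against the call applied to every gene, that too is a description. The tests below concern genes outside the list.

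MCF10DCIS.com (hereafter MCF10DCIS) is a human breast cancer line of the MCF10A lineage that forms lesions like ductal carcinoma in situ in mice. WDR5 is a WD40-repeat protein and a core subunit of the complexes that methylate lysine 4 of histone H3. The series held poly-A RNA-seq of 3 shLuc samples, infected with a hairpin against luciferase that has no target in human cells, and 3 shWDR5 samples, infected with hairpins against WDR5, which the study's methods describe as a pool of 2. The hairpins were driven by the U6 promoter in a vector that also carries TagRFP and puromycin resistance, and all 6 cultures were selected with 3 µg/ml puromycin in medium with 5% horse serum. The labels number the samples 1 to 3 in each group but do not say whether these were separate infections, so p-values measure only the spread between these samples, which may be technical. Between 38218108 and 57640167 reads were assigned to genes per library. WDR5 itself was at 16.5, 15.2 and 16.1 RPKM in shLuc and at 7.34, 7.65 and 6.52 RPKM in shWDR5, or 45.0% of the control level (log2 fold change -1.15 ± 0.07 SE, edgeR adjusted p = 8.67e-07). RPKM here means counts divided by the exon length of the gene and by the scaled library size, so that both genes and samples can be compared. In such bulk RNA fewer cells with a transcript and less of it per cell cannot be told apart. The 8 epithelial markers, among them EPCAM, CDH1, KRT5, KRT8 and KRT17, summed to 3718 to 3994 RPKM in shLuc and 5042 to 5674 RPKM in shWDR5. They did not all rise. From shLuc to shWDR5, mean KRT17 went from 1372 to 2624 RPKM and mean KRT5 from 356 to 671. Mean CDH1 went from 103 to 50.3 RPKM and mean EPCAM from 165 to 131, while KRT8 was at 894 and 917. By contrast, 6 fibroblast markers summed to 2.53 to 4.04 RPKM and 5 endothelial markers to 1.17 to 1.88 RPKM over all samples.

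Every integrin is a dimer of 1 alpha and 1 beta chain, and the pairing decides which matrix protein it binds. The beta1 chain pairs with alpha2 to bind collagen, with alpha3 and alpha6 to bind laminin, and with alpha5 to bind fibronectin. The beta4 chain pairs with alpha6 alone and anchors basal epithelial cells to laminin-332 through hemidesmosomes. The alphaV chain pairs with beta1, beta5 and beta6, among others, to bind proteins with an RGD site, and the alphaV-beta6 dimer releases TGFβ1 from its latent form. The beta2 chain is known from leukocytes, where it joins the alphaL, alphaM, alphaX or alphaD chain to bind ICAM proteins.

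The members lie on 7 chromosomes, in the hg19 coordinates of the count table. ITGA6, ITGAV and ITGB6 are all on chromosome 2, at chr2:173292314-173371181, chr2:187454790-187545629 and chr2:160956177-161056824. ITGA3 and ITGB4 are on chromosome 17, at chr17:48133340-48167849 and chr17:73717516-73753899. The remaining members are at chr5:52285156-52390609 for ITGA2, chr12:54789045-54813050 for ITGA5, chr10:33189246-33247293 for ITGB1, chr21:46305869-46348788 for ITGB2 and chr3:124480795-124606152 for ITGB5. Reads were counted over all annotated exons of a gene, untranslated parts included, which came to between 3220 exonic bases for ITGB2 and 7910 for ITGA2. All 10 members passed the filter on low counts on their shLuc samples alone, the lowest being ITGB2 at 3.15 CPM (counts relative to library size) against a minimum of 0.213.

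Of the members, 9 had a higher fitted level in shWDR5 than in shLuc and 1, ITGB5, a lower one. By the call applied to every gene, an adjusted p under 0.05, 7 members counted as higher, 1 as lower and 2 as not called, while 56.5% of the 16117 genes tested were called, 26.6% as higher and 29.9% as lower. When a log2 fold change of at least 0.6 and a level over 0.5 RPKM were also asked for, 5 members (ITGA5, ITGAV, ITGB2, ITGB4 and ITGB6) met the call, all of them higher, beside 18.4% of all genes. The samples of the groups did not overlap for 8 members, as for 62.3% of all genes. The median log2 fold change was 0.48 over the 10 members, 0.35 without ITGB2 and -0.01 over all genes tested. Since the contrast took part in choosing the members, nothing is read from these counts.

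**Figure D1:**
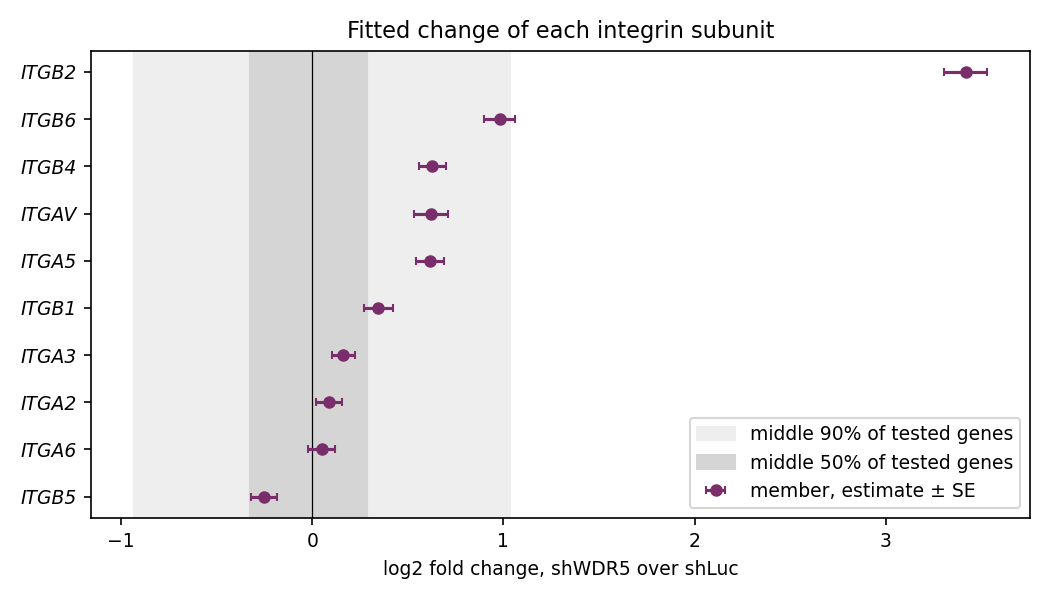
Fitted log2 fold change of shWDR5 over shLuc for each of the 10 integrin members (points) with its standard error (bars), on grey bands that hold the middle 50% and 90% of the 16117 genes tested. ITGB2 stands far to the right at 3.42, ITGB6 follows at 0.98, ITGB4, ITGAV and ITGA5 lie together near 0.62, and ITGB5 lies below 0 at -0.25.

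In the control cells the beta4 and alpha3 chains were the most abundant members. In shLuc the order of levels per length was ITGB4 at 705 ± 53.5 RPKM (SD, n = 3), ITGA3 at 550.2 ± 36.2, ITGA6 at 382 ± 28.8 and ITGB1 at 312 ± 24.0. These 4 chains, which make up the laminin-binding dimers, stood apart from the rest, and the range of each over its samples did not overlap that of the next. ITGB5 followed at 91.8 ± 7.06 RPKM, ITGA2 at 74.1 ± 5.50, ITGB6 at 55.6 ± 5.64, ITGA5 at 47.1 ± 2.48 and ITGAV at 44.5 ± 4.56. ITGB6 overlapped ITGA5 and ITGA5 overlapped ITGAV in their sample ranges, so the order within each of these pairs cannot be told. ITGB6, at 49.1 to 59.0 RPKM, did lie above ITGAV, at 39.5 to 48.5 RPKM. ITGB2 was last by a wide margin, at 1.16 ± 0.167 RPKM. In shWDR5 the 2 leading places and the last place were held by the same genes, ITGB1 and ITGA6 overlapped at 397 ± 32.2 and 396 ± 27.1 RPKM, and ITGB6 took the fifth place at 109.7 ± 7.84 RPKM, above ITGA2, ITGB5, ITGA5 and ITGAV, whose neighbours overlapped.

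**Figure D2:**
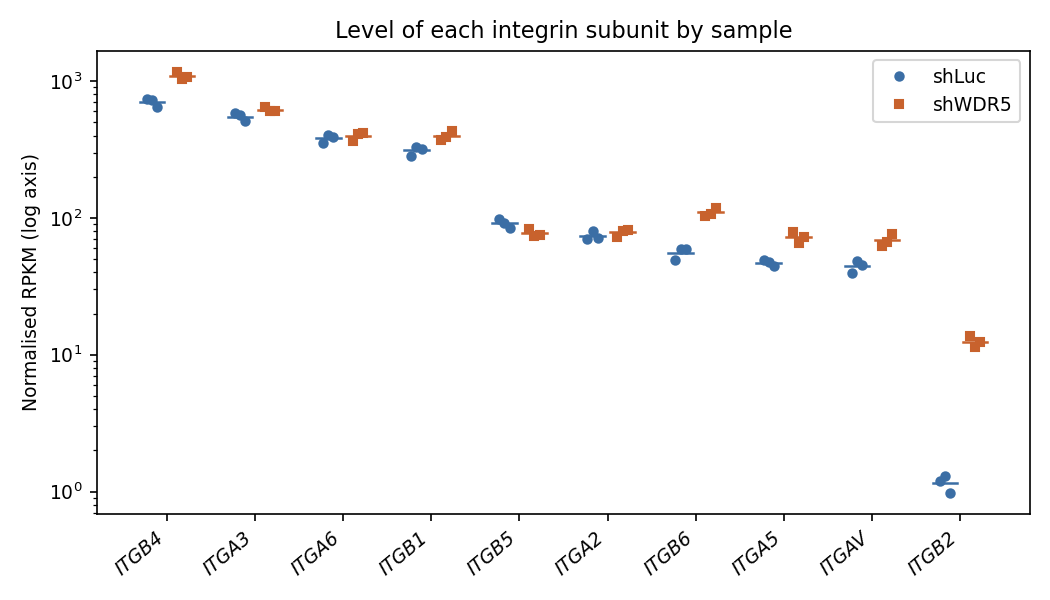
Level of each integrin member in every sample, as normalised RPKM on a log axis, ordered by the mean in shLuc; circles are shLuc, squares are shWDR5 and short lines are group means (n = 3). ITGB2 is the lowest member in both groups, at 1.16 RPKM in shLuc and 12.4 in shWDR5.

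ITGB2, the beta chain of leukocyte integrins, showed the widest separation between the groups. Its counts were 190, 163 and 127 in the shLuc samples and 2029, 2069 and 1798 in the shWDR5 samples. Per length these were 1.19, 1.31 and 0.977 RPKM in shLuc and 13.6, 11.3 and 12.3 RPKM in shWDR5. All 3 shWDR5 samples lay far above all 3 controls, with a log2 fold change of 3.42 ± 0.11 (SE), or 10.7-fold. This was the 26th largest increase among the 16117 genes tested. Even so, in shWDR5 cells ITGB2 stayed below every other member, the nearest being ITGAV at 68.4 ± 7.43 RPKM.

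ITGB2 shares its locus with ITGB2-AS1, an antisense RNA on the plus strand at chr21:46340950-46349595. Their exons have 236 bases in common, 7.33% of those of ITGB2 and 9.85% of those of ITGB2-AS1. ITGB2-AS1 had 36, 36 and 41 counts in shLuc and 713, 784 and 678 in shWDR5, so that it rose 16.6-fold (log2 fold change 4.06 ± 0.12 SE). It was named after its values were seen, and this change is given as a description. The groups did not overlap here either. The library protocol in the labels describes no step that marks the strand, so reads of ITGB2 and of its antisense RNA cannot be told apart where they overlap. There were 0.244 ± 0.070 antisense counts for each ITGB2 count in shLuc and 0.369 ± 0.015 in shWDR5 (SD, n = 3).

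The alpha chains that pair with beta2 were rare. ITGAM, the alphaM chain, had 32, 10 and 34 counts in shLuc and 125, 106 and 112 in shWDR5, and rose with a log2 fold change of 1.97 ± 0.28 (SE, edgeR adjusted p = 0.000177). ITGAL, the alphaL chain, had 66, 53 and 37 counts against 93, 111 and 96, and rose by 0.74 ± 0.16 on the log2 scale (edgeR adjusted p = 0.00256). Both stayed under 0.6 RPKM in every sample. ITGAX, the alphaX chain, fell from 0.619 ± 0.057 to 0.481 ± 0.045 RPKM (log2 fold change -0.37 ± 0.12 SE, edgeR adjusted p = 0.0255), a call that was lost with DESeq2 (adjusted p = 0.0909) and without shLuc replicate 1 or 2 or shWDR5 replicate 2 or 3 (adjusted p = 0.0578 to 0.0992). ITGAD, the alphaD chain, had no count in any library, where 3 counts, the limit that a count of 0 allows, correspond to 0.0520 to 0.0785 CPM, counting error only.

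The 12 leukocyte markers moved in both directions beside this rise, and their part in it was not tested. Of these, 5 passed the filter on low counts. Among all genes that passed it, 26.6% were called as higher and 29.9% as lower. LCP1 (L-plastin, an actin bundler) rose from 719 to 906 counts per library to 1088 to 1592, and LAPTM5 rose from 97 to 132 counts to 242 to 310 (edgeR adjusted p = 0.000429 and 5.24e-06). These counts are not scaled for depth, and the fitted log2 fold changes were 0.48 ± 0.08 and 1.07 ± 0.09 (SE). CORO1A (coronin, an actin-binding protein) fell from 841 to 1221 counts to 496 to 671, and CD14 fell from 57 to 95 counts to 34 to 46 (edgeR adjusted p = 5.78e-06 and 0.000342). Their fitted log2 fold changes were -0.99 ± 0.09 and -1.05 ± 0.17 (SE). CD53 was not called. Among the rest PTPRC (CD45), which marks nearly all leukocytes, had 1, 0 and 1 counts in shLuc and 7, 4 and 4 in shWDR5, SPI1 and TYROBP had at most 1 count in any library, and CD3E had none. The summed level of the 12 was 18.1 to 20.5 RPKM in shLuc and 15.6 to 17.1 RPKM in shWDR5, most of it from CORO1A and LCP1.

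**Figure D3:**
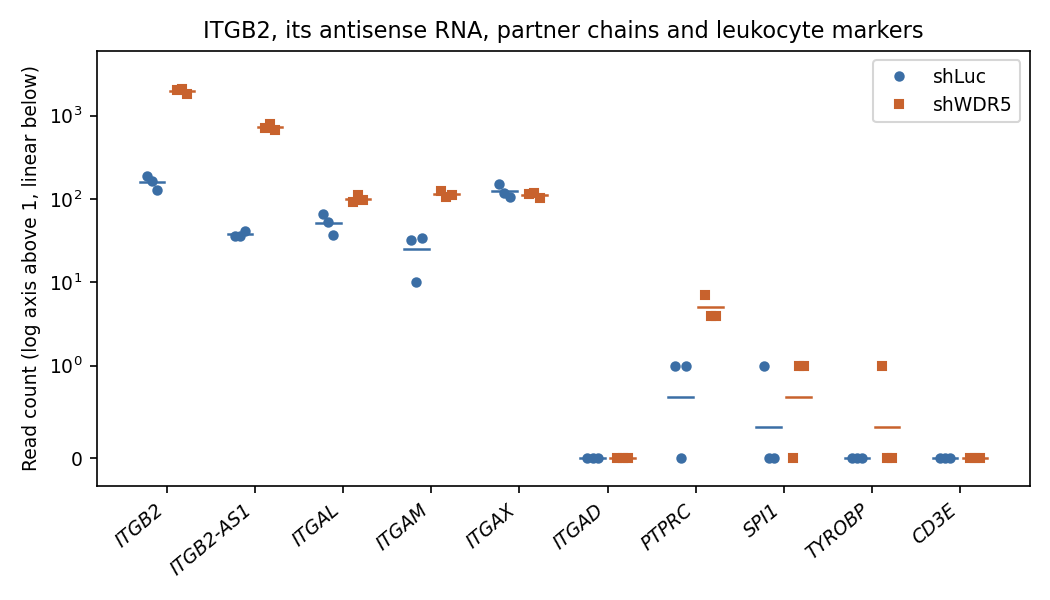
Read counts in every sample, on an axis that is logarithmic above 1 and linear below, for ITGB2, its antisense RNA ITGB2-AS1, the alpha chains that pair with beta2 and 4 of the 12 leukocyte markers; circles are shLuc, squares are shWDR5, lines are group means (n = 3). ITGB2 and ITGB2-AS1 are far apart between the groups (10.7-fold and 16.6-fold). ITGAD and CD3E have no count and the other 3 markers shown have at most 7. Markers of the list with more counts are not drawn, among them LCP1 and LAPTM5, which rose, and CORO1A and CD14, which fell.

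Among ligands of the beta2 dimers, 7 of 8 listed genes were tested, of which 3 rose, 1 fell and 3 were not called (median log2 fold change 0.22). The share called over all genes tested was 26.6% as higher and 29.9% as lower. ICAM1, which also holds leukocytes at inflamed epithelium, rose from 91.3 ± 5.78 to 208 ± 6.47 RPKM (log2 fold change 1.19 ± 0.06 SE, edgeR adjusted p = 2.31e-07). ICAM4 rose from 1.17 ± 0.022 to 4.38 ± 0.231 RPKM and F11R, the junctional protein JAM-A, by 0.28 ± 0.05 on the log2 scale (edgeR adjusted p = 2.68e-07 and 0.000907). ICAM5 fell from 4.24 ± 0.288 to 2.21 ± 0.165 RPKM (edgeR adjusted p = 9.43e-06).

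The pattern of ITGB2 over the 6 samples, but not the size of its change, was shared by other genes. The 3 with the highest Pearson correlation of log2 CPM were PTCHD4, FBRSL1 and LTB4R, all at r of at least 0.999. Among the 16117 genes tested, 468 were above 0.99. A correlation does not measure the size of a change. The 3 named genes rose 1.79-, 1.76- and 1.49-fold, against 10.7-fold for ITGB2. With 3 samples in each of the groups, the correlation follows mainly the difference between them.

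ITGB6, whose chain forms the TGFβ-activating alphaV-beta6 dimer of epithelia, was the member with the next largest difference. It was at 49.1, 59.0 and 58.8 RPKM in shLuc and at 104, 107 and 119 RPKM in shWDR5. The lowest shWDR5 sample was well above the highest control, and the log2 fold change was 0.98 ± 0.08 (SE), or 1.97-fold. ITGAV, its only partner, was at 39.5, 48.5 and 45.3 RPKM in shLuc and at 62.4, 66.1 and 76.7 RPKM in shWDR5, again without overlap and with a log2 fold change of 0.62 ± 0.09 (SE). ITGB5, another beta chain that pairs with alphaV and then binds vitronectin, was the member that was lower in shWDR5. It was at 99.0, 91.5 and 84.8 RPKM in shLuc and at 82.4, 74.1 and 74.6 RPKM in shWDR5, the highest shWDR5 sample lying just under the lowest control, with a log2 fold change of -0.25 ± 0.07 (SE). ITGB6 was therefore below ITGB5 in each shLuc sample and above it in each shWDR5 sample.

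ITGA5, the alpha chain of the classical fibronectin receptor, was at 49.4, 47.5 and 44.5 RPKM in shLuc and at 79.1, 65.1 and 72.5 RPKM in shWDR5. The groups did not overlap and the log2 fold change was 0.62 ± 0.07 (SE). An uncharacterised gene, LOC102724050, shares 48 exonic bases with ITGA5, 1.13% of its exons, and had 2 to 7 counts per library, against at least 7628 for ITGA5.

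For 7 of the 10 members the RefSeq promoter table (GRCh38.p14) held 12 start windows of 280 bases, 250 before a start and 30 after it. ITGA5 and ITGB6 are shown because they were the members with a log2 fold change over 0.6 that had a single window. Matches in either strand to the AP-1 site TGANTCA and to the GC box GGGCGG are in capitals, and no matches overlap.
ITGA5, minus strand of chr12:54419237-54419516: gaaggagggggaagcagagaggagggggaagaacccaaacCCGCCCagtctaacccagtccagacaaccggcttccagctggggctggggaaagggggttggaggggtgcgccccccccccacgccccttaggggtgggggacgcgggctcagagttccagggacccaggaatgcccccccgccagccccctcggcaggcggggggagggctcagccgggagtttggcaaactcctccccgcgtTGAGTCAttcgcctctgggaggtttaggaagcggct
ITGB6, minus strand of chr2:160200243-160200522: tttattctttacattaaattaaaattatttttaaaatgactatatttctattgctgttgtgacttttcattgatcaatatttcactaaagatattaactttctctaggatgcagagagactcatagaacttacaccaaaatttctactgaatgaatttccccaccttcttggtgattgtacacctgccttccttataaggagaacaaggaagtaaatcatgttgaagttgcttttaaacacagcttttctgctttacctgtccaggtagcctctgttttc
The ITGA5 window had 68.6% G and C, a GC box 210 bases before the start and an AP-1 site beginning 6 bases before it. The ITGB6 window had 32.1% G and C, the lowest of the 12, and no match to either motif. An AP-1 match was found in 7.35% of all 35116 promoter windows and a GC box in 44.1%. ITGA5 was the only one of the 7 members with an AP-1 match in a window. A match is a run of letters and does not show a bound factor.

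ITGB4, the chain of the hemidesmosome, was the most abundant member in all 6 samples. It was at 742, 729 and 644 RPKM in shLuc and at 1169, 1028 and 1070.0 RPKM in shWDR5, without overlap and with a log2 fold change of 0.63 ± 0.07 (SE). ITGA6, its obligate partner, was at 350.1, 405 and 392 RPKM in shLuc and at 364, 409 and 414 RPKM in shWDR5. These values overlapped almost entirely, and the log2 fold change of 0.05 ± 0.07 (SE) was smaller than its error and turned to -0.01 when libraries were scaled by their totals alone. ITGB4 transcripts thus outnumbered those of ITGA6 in each sample of both groups.

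ITGB1, the common beta chain, was at 285, 330.2 and 321 RPKM in shLuc and at 368, 391 and 432 RPKM in shWDR5. The groups did not overlap, with a log2 fold change of 0.35 ± 0.07 (SE). ITGA3, the alpha chain of the main laminin-332 receptor outside hemidesmosomes, was at 580.1, 560.5 and 510.0 RPKM in shLuc and at 645, 601 and 602 RPKM in shWDR5. Here the lowest shWDR5 sample was only slightly above the highest control, the log2 fold change was 0.16 ± 0.06 (SE), and ITGA3 no longer met the call with libraries scaled by their totals alone (0.11) or when any of shLuc replicates 2 and 3 and shWDR5 replicates 1, 2 and 3 was left out (0.11 to 0.18). ITGA2, the alpha chain of the collagen receptor, was at 70.5, 80.4 and 71.4 RPKM in shLuc and at 73.0, 80.8 and 82.2 RPKM in shWDR5. These overlapped, with a log2 fold change of 0.09 ± 0.07 (SE).

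Summed over all subunits in the table, the beta chains differed more between the groups than the alpha chains. The 16 beta and alpha subunits outside the list contributed little, since the 5 member alpha chains made up 99.2% ± 0.069 of the alpha total in shLuc and 99.4% ± 0.034 in shWDR5, and the 5 member beta chains 96.4% ± 0.416 and 97.9% ± 0.290 of the beta total (SD, n = 3). The alpha total was 1107 ± 39.9 RPKM in shLuc and 1238 ± 14.4 in shWDR5, and the beta total was 1209 ± 55.4 and 1722 ± 64.6 RPKM. The ratio of beta to alpha transcripts was 1.09 ± 0.016 in shLuc and 1.39 ± 0.048 in shWDR5. Most of the rise in the beta total was that of ITGB4, from a mean of 705 to 1089 RPKM. ITGB1, ITGB2, ITGB6 and ITGB7 also had higher fitted levels in shWDR5, while ITGB5, ITGB3 and ITGB8 had lower ones. The difference was thus not one of all beta chains. ITGB4 alone was 58.3% ± 2.62 of the beta total in shLuc and 63.2% ± 2.54 in shWDR5, ITGB5 was 7.59% ± 0.486 and 4.47% ± 0.199, and ITGB6 was 4.61% ± 0.535 and 6.38% ± 0.466. ITGB2 stayed under 1% of the beta total, at 0.0955% ± 0.0096 and 0.720% ± 0.044. Among alpha chains ITGA3 held 49.7% ± 2.73 and 49.7% ± 2.30. These are shares of RNA, and what they mean for the surface dimers was not measured.

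**Figure D4:**
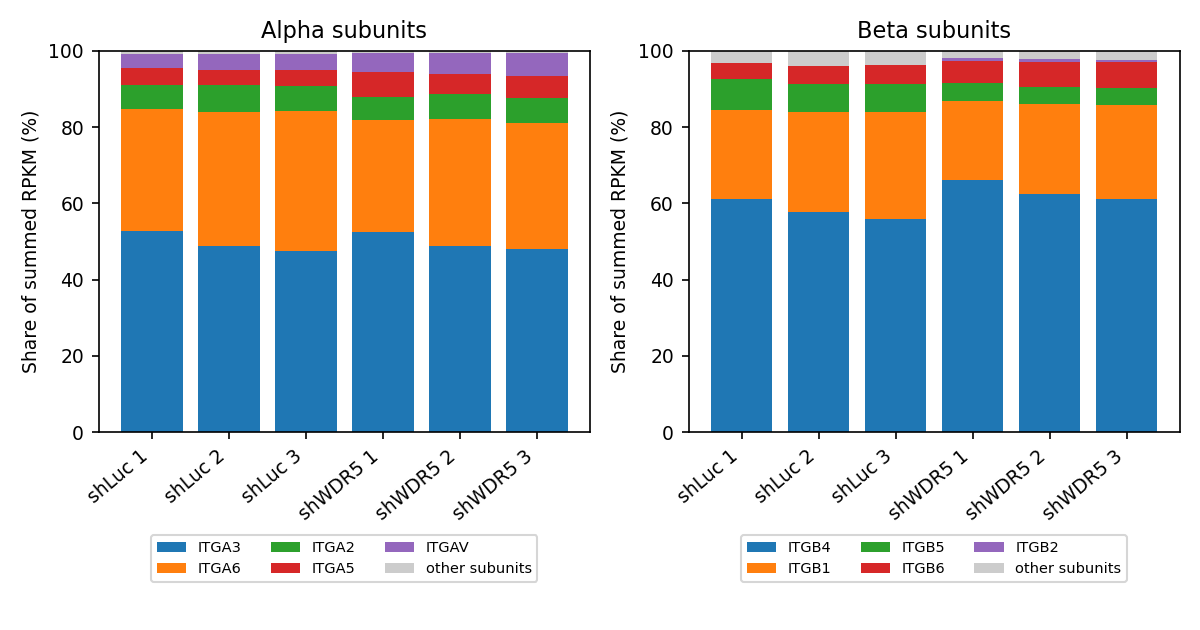
Share of each member in the summed RPKM of all alpha (left) and all beta (right) integrin subunits, in percent, for every sample; grey stands for the subunits outside the list. ITGA3 and ITGA6 fill most of the alpha bars and ITGB4 and ITGB1 most of the beta bars in both groups, and the ITGB5 segment is smaller in the 3 shWDR5 samples (4.47% against 7.59% on average).

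The integrin subunits outside the list were mostly scarce and moved in both directions. Of 16 genes, 14 were tested, of which 4 rose, 6 fell and 4 were not called, with a median log2 fold change of -0.07. Among all genes tested 26.6% were called as higher and 29.9% as lower, so both directions were common in the whole series. Beside ITGAM and ITGAL, ITGB7, a partner of alpha4 and alphaE, rose from 0.382 ± 0.051 to 0.867 ± 0.088 RPKM (log2 fold change 1.18 ± 0.15 SE, edgeR adjusted p = 7.42e-05). ITGA9 was called as higher at 13 to 29 counts per library (edgeR adjusted p = 0.0396), but this was lost with DESeq2, without the filter on low counts, with libraries scaled by their totals alone, with a replicate block and when any 1 sample was left out (adjusted p = 0.054 to 0.19). ITGB3, the beta chain that pairs with alphaV in the vitronectin receptor, fell from 12.8 ± 0.988 to 9.41 ± 0.620 RPKM (log2 fold change -0.45 ± 0.07 SE, edgeR adjusted p = 0.000496). ITGA2B fell by 1.60 ± 0.16, ITGA10 by 1.11 ± 0.09 and ITGA7 by 0.68 ± 0.18 on the log2 scale (edgeR adjusted p = 1.25e-05, 5.01e-06 and 0.00808). ITGB8, the most abundant of these subunits and also a partner of alphaV, was at 30.2 ± 6.02 and 26.2 ± 4.66 RPKM and was not called (edgeR adjusted p = 0.259).

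Talins and kindlins bind the tails of beta chains and switch integrins on. Of these 5 genes, 3 rose, none fell and 2 were not called (median log2 fold change 0.51). For comparison, 26.6% of all genes tested were called as higher and 29.9% as lower. FERMT2 (kindlin-2) rose from 6.66 ± 0.397 to 18.6 ± 1.33 RPKM (log2 fold change 1.48 ± 0.07 SE, edgeR adjusted p = 2.29e-07). FERMT1, the kindlin of epithelia, rose from 49.5 ± 2.89 to 70.4 ± 1.89 RPKM and TLN2 by 0.49 ± 0.05 on the log2 scale (edgeR adjusted p = 3.41e-05 and 2.73e-05). TLN1, the common talin, was at 42.2 ± 3.05 and 44.9 ± 2.27 RPKM and was not called (edgeR adjusted p = 0.272). Of 5 genes whose proteins hold integrins inactive or compete for their tails, 2 rose, 2 fell and 1 was not called. FLNA (filamin A), an actin cross-linker, rose from 2.48 ± 0.400 to 7.84 ± 0.569 RPKM (log2 fold change 1.66 ± 0.11 SE, edgeR adjusted p = 1.02e-06), and SHARPIN by 0.46 ± 0.09. DOK1, an adaptor, fell from 4.67 ± 0.470 to 1.71 ± 0.132 RPKM (edgeR adjusted p = 1.52e-06). TNS1 was called as lower (edgeR adjusted p = 0.029) at under 0.2 RPKM, and this was lost with DESeq2 (adjusted p = 0.0689) and without shLuc replicate 1 or 2 or shWDR5 replicate 3 (adjusted p = 0.0602 to 0.0873).

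The hemidesmosome partners of the alpha6-beta4 dimer all rose, 4 of 4, with a median log2 fold change of 0.72. Over all genes tested, 26.6% were called as higher and 29.9% as lower. Beside the hemidesmosome genes, 4 of the 8 epithelial markers rose, 2 fell and 2 were not called. Those that rose were the markers of basal cells, KRT14 by 1.29 ± 0.09, KRT17 by 0.94 ± 0.07, KRT5 by 0.91 ± 0.06 and TP63 by 0.42 ± 0.08 on the log2 scale (edgeR adjusted p at most 0.0017). The luminal keratins KRT8 (0.04 ± 0.06) and KRT18 (-0.12 ± 0.06) were not called, and CDH1 and EPCAM fell by 1.03 ± 0.05 and 0.33 ± 0.07. The part of these markers in the rise of the hemidesmosome genes was not tested. COL17A1, a transmembrane collagen, rose from 81.5 ± 1.34 to 173 ± 8.13 RPKM (log2 fold change 1.09 ± 0.05 SE, edgeR adjusted p = 2.03e-07). PLEC (plectin), which ties beta4 to keratin filaments, rose from 103 ± 6.61 to 182 ± 7.86 RPKM (0.83 ± 0.06, edgeR adjusted p = 2.26e-06). The tetraspanin CD151 rose by 0.62 ± 0.07 and DST (dystonin) by 0.42 ± 0.05 on the log2 scale (edgeR adjusted p = 2.62e-05 and 8.49e-05). Of 20 focal adhesion genes, 19 were tested, of which 11 rose, 3 fell and 5 were not called, with a median log2 fold change of 0.23. PXN (paxillin) rose by 0.65 ± 0.06, TNS4 by 0.56 ± 0.07, ZYX (zyxin) by 0.42 ± 0.07 and the kinase SRC by 0.40 ± 0.07 on the log2 scale (edgeR adjusted p at most 0.000686). TGFB1I1 fell by 0.40 ± 0.10, VCL (vinculin) by 0.20 ± 0.05 and ACTN4 by 0.20 ± 0.06 on the log2 scale (edgeR adjusted p at most 0.016). ACTN4 was no longer called without shLuc replicate 1 or shWDR5 replicate 2 (adjusted p = 0.0621 and 0.0679).

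Ligands of the laminin-binding members moved in both directions. Of 9 laminin chains, 3 rose, 3 fell and 3 were not called (median log2 fold change -0.10). Both directions were common in the whole series, with 26.6% of genes tested called as higher and 29.9% as lower. LAMA3, the alpha chain of laminin-332, rose from 92.5 ± 4.94 to 210.2 ± 11.8 RPKM (log2 fold change 1.18 ± 0.06 SE, edgeR adjusted p = 2.69e-07) and LAMB3, its beta chain, from 542 ± 66.2 to 812 ± 67.3 RPKM (0.58 ± 0.09, edgeR adjusted p = 0.000312). LAMB1, LAMA4 and LAMA5, found in other laminins, fell by 0.53 ± 0.05, 0.48 ± 0.06 and 0.33 ± 0.06 on the log2 scale (edgeR adjusted p at most 0.00066).

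Of 13 ligands with an RGD or related site, 11 were tested, of which 6 rose, 3 fell and 2 were not called (median log2 fold change 0.33). Here too the share over all genes tested was 26.6% called as higher and 29.9% as lower. FN1 (fibronectin), the ligand of the alpha5 chain, rose from 123 ± 6.61 to 752 ± 76.8 RPKM (log2 fold change 2.62 ± 0.08 SE, edgeR adjusted p = 2.86e-08). SPP1 (osteopontin) rose by 2.89 ± 0.31, from 7 to 12 counts to 66 to 88 unscaled counts per library. CTGF rose by 1.46 ± 0.06 and MFGE8 by 0.39 ± 0.07, all on the log2 scale (edgeR adjusted p at most 0.00102). TNC (tenascin-C) fell from 54.1 ± 1.25 to 29.7 ± 1.68 RPKM (-0.87 ± 0.06, edgeR adjusted p = 9.23e-07). TGFB1, whose latent form is the ligand of alphaV-beta6, fell from 9.04 ± 0.617 to 5.56 ± 0.405 RPKM (-0.70 ± 0.08, edgeR adjusted p = 4.03e-05), and TGFB3 fell by 0.46 ± 0.09 on the log2 scale (edgeR adjusted p = 0.00172). Of 8 collagen genes, 5 were tested, of which COL1A1 fell (-0.50 ± 0.08, edgeR adjusted p = 0.000438) and 4 were not called.

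**Figure D5:**
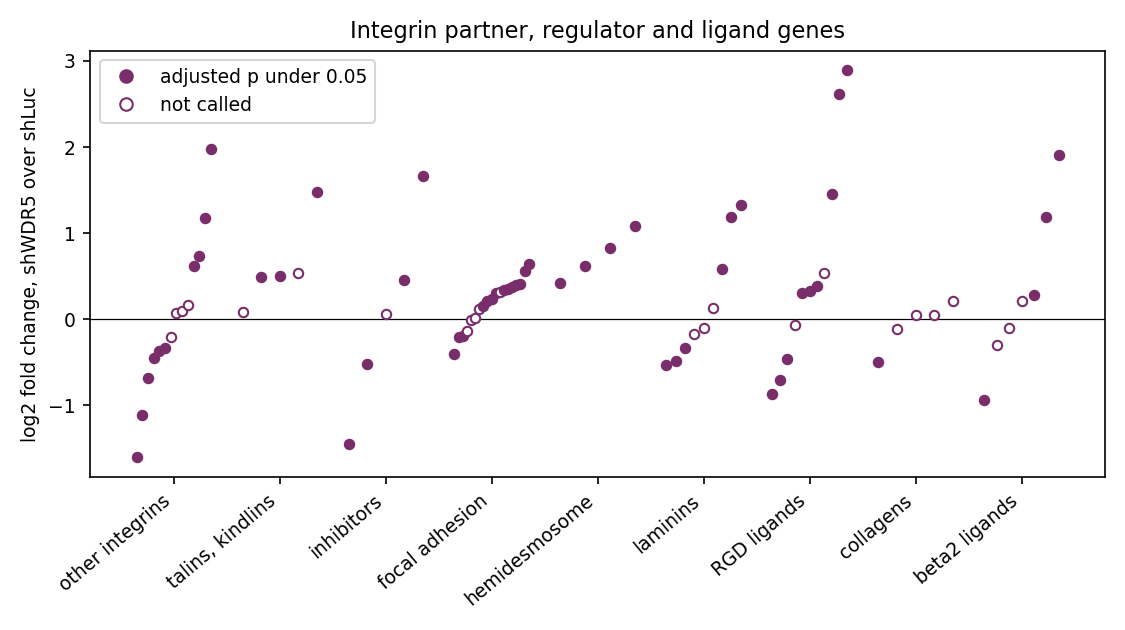
Log2 fold change of shWDR5 over shLuc for each tested gene of 9 lists of integrin partners, regulators and ligands; filled points have an adjusted p under 0.05 (edgeR) and open points do not. All 4 hemidesmosome points are filled and above 0, laminins and the other integrins spread on both sides, and FN1 (2.62) and SPP1 (2.89) are the highest of the RGD ligands.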

How the data were processed

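Poly-A RNA of MCF10DCIS cells was sequenced in 3 shLuc and 3 shWDR5 samples. The deposited table holds raw read counts per gene with exon coordinates and lengths, and the submitters' processing notes name TopHat2 2.1.0, featureCounts and hg19, while the annotation and the strand setting are not given in the sources used here. A second deposited table holds only the authors' own edgeR 3.2.2 comparison (fold changes, p-values and adjusted p-values) and was not used.

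Counts were tested with the quasi-likelihood test of edgeR 4.0.16 in R 4.3.3, with TMM scaling, filterByExpr and group as the only term, and p-values were adjusted (Benjamini-Hochberg) over all 16117 genes tested. SE was taken from the fitted change and its F statistic. The fitted fold changes use edgeR's prior count of 0.125, and RPKM were computed from the counts, the file's exon lengths and the TMM-scaled library sizes. The script was tested on simulated data. Alternatives were DESeq2 1.42.0, RLE scaling, library totals, no filter, a replicate block, each sample left out, and a call that adds the log2 fold change of 0.6 and 0.5 RPKM that the study states for its xenografts. Named genes were the members, WDR5, the beta2 partners and, per list, up to 4 called genes in each direction by size of change, of which some are not reported here. ITGB8, TLN1, ITGB2-AS1 and LOC102724050, and the leukocyte and epithelial markers named one by one, were named after their values were seen. Members and lists were chosen with earlier results of these data known.

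Depth was 38218108 to 57640167 counts per sample. Replicates of a group differed by 7.20 to 18.4 times counting noise (chi-square per degree of freedom), so no library was a copy of another.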

Additional observations from a re-analysis of the deposited data

How the results depend on the processing

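Every member had the same direction in 11 alternative fits, except ITGA6 (-0.01 with library totals alone), and each member's log2 fold change moved by less than the spread between replicates. Of 81 other genes (the lists, WDR5 and ITGB2-AS1), 9 lost a call and 11 gained one under at least 1 fit, and no called change turned its direction. Of 144 comparisons of counts of calls, 129 stayed within 1.5 times. The call with a fold and level minimum gave 1274 genes as higher and 1688 as lower, against 4291 and 4821. Under it no member was lower, 0 against 1. It left 1 of the other integrins higher and 3 lower, 2 activators or inhibitors higher and 1 lower, 4 focal adhesion or hemidesmosome genes higher and 0 lower, and 7 ligands higher and 3 lower. DESeq2 gave 1 activator or inhibitor as lower, against 2, and the same count was 1 to 2 when a sample was left out. Leaving out a sample gave 3803 to 4263 genes as higher and 4271 to 4584 as lower, with 6 to 7 members higher.

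Samples with the same number were not treated as paired, since the labels name nothing they share. Their deviations from the group means correlated across genes at 0.37, 0.036 and 0.12 for replicates 1, 2 and 3. These values do not settle whether the samples were paired. As a hint from the data, shLuc replicates 1 and 3 correlated best with the shWDR5 replicate of their own number, and shLuc replicate 2 with shWDR5 replicate 3. With a replicate block 4901 genes were higher and 5511 lower, against 4291 and 4821 without it, and 7 members were higher and 1 lower in both fits. The SE of every member was smaller with the block, for ITGAV 0.054 against 0.091. ITGB8 was called as lower with the block (log2 fold change -0.20, edgeR adjusted p = 0.0421). For genes such as ITGAM, ITGA9 and SPP1, at 7 to 125 counts per library, depth limits what can be seen.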

Other observations

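Within both groups the replicate numbered 1 held an extreme level for 9 of the 10 members. It was the lowest of its group in both groups for ITGA2, ITGA6, ITGAV, ITGB1 and ITGB6, and the highest in both for ITGA3, ITGA5, ITGB4 and ITGB5, with ITGB2 as the exception. No such count was made over all genes, so this is not shown to be particular to the members. Across tested genes with at least 20 counts in a pair, pairs with replicate 1 differed by 14.4 to 18.4 times counting noise. Replicates 2 and 3 differed by 7.61 times in shLuc and 7.20 times in shWDR5. The labels do not say what samples numbered 1 share, and a cause was not tested.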
